A study of Homo sapiens with 8 samples.

Results

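The genes described here encode 10 protein cores of cell surface and secreted proteoglycans: SPOCK1, SPOCK2, SDC1, SDC2, SDC3, SDC4, GPC1, GPC3, GPC4 and GPC6. They were taken as all probe sets whose array annotation gave a single one of these symbols. This gave 33 of the 49495 probe sets on the array and 10 of 18244 genes. The groups were A549 cells with EN2, A549 cells with the NC control, PC9 cells with EN2 and PC9 cells with NC, with 2 arrays each. A549 and PC9 are established lines of non-small cell lung cancer, both of adenocarcinoma type. EN2, a homeobox transcription factor of the engrailed family, was delivered by retrovirus from 293FT packaging cells. The NC cells received the control Neo retrovirus, so all 4 groups carried a vector and had been drug-selected. PC9 was grown in DMEM and A549 in F-12K. The labels do not state whether each stable population was a clone or a pool, nor whether the replicate arrays came from separate cultures, so the p-values measure a spread that may be technical.

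Proteoglycans are proteins to which long glycosaminoglycan chains are attached. Syndecans (SDC genes) span the membrane, carry mainly heparan sulfate and link the matrix to the actin cytoskeleton. Glypicans (GPC genes) are held on the surface by a glycosylphosphatidylinositol anchor and present growth factors, Wnt and Hedgehog ligands to their receptors. Testicans (SPOCK genes) are secreted into the matrix and belong to the SPARC family of calcium-binding matrix proteins. Epithelial cells of the lung typically make syndecan-1 and syndecan-4, and glypican-3 is a fetal glypican known for its X-linked overgrowth syndrome.

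All values below are log2 expression as deposited. A gene was represented by its brightest probe set, tested with limma across all genes and called at a Benjamini-Hochberg adjusted p below 0.05. EN2 itself averaged 7.67 ± 0.064 in A549 EN2 cells and 6.52 ± 0.067 in A549 NC cells (SD, n = 2 arrays each; limma adjusted p = 0.00028). In PC9 it averaged 6.32 ± 0.11 with EN2 and 5.82 ± 0.055 with NC, and this did not pass (limma adjusted p = 0.0801). These values are from the brighter of the EN2 probe sets. The other averaged 6.40 ± 0.083 in A549 EN2 cells and 6.35 ± 0.031 in A549 NC cells and overlapped between the groups in both lines (log2 change 0.050 in A549, limma adjusted p = 0.934 over all probe sets). By the mean of both probe sets the A549 change was 0.60 (limma adjusted p = 0.0179). The A549 call of EN2 was lost once the 18S rRNA signal was a covariate (log2 change 1.11, limma adjusted p = 0.13) and without A549 EN2 replicate 1 and A549 NC replicate 2 together (limma adjusted p = 0.0697). These are bulk RNA values, in which fewer cells making a gene and less RNA per cell cannot be told apart. The epithelial markers EPCAM, CDH1, KRT7, KRT8, KRT18, KRT19, NKX2-1, NAPSA and SFTPB all lay above the spike-in background in every group. Of markers of other cell types, 4 to 5 of 8 fibroblast, 4 of 5 leukocyte and 4 to 5 of 6 endothelial markers also lay above it, depending on the group. COL3A1, DCN, LUM, the pan-leukocyte gene PTPRC and the endothelial gene TEK lay below it in every group, and the part of other cell types in the results was not tested. That background was the 95th percentile of 100 ERCC spike-in probe sets, 4.41 in A549 and 3.89 in PC9. The 18S rRNA control signal of A549 read 11.66 and 12.12 with EN2 and 12.44 and 12.74 with NC, so these groups did not overlap. It spanned 6.05 to 6.10 over the PC9 arrays.

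Of the 33 probe sets, 19 lay above the spike-in background in both lines, 1 in A549 only, 2 in PC9 only and 11 in neither. At the gene level 8 of 10 lay above it in both lines, SDC2 did so in PC9 only, and GPC4 did so in neither. The members that were well above background were therefore SPOCK1, SPOCK2, SDC1, SDC3, SDC4 and GPC1, and the plot of levels by array shows them beside the dim members.

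**Figure D1:**
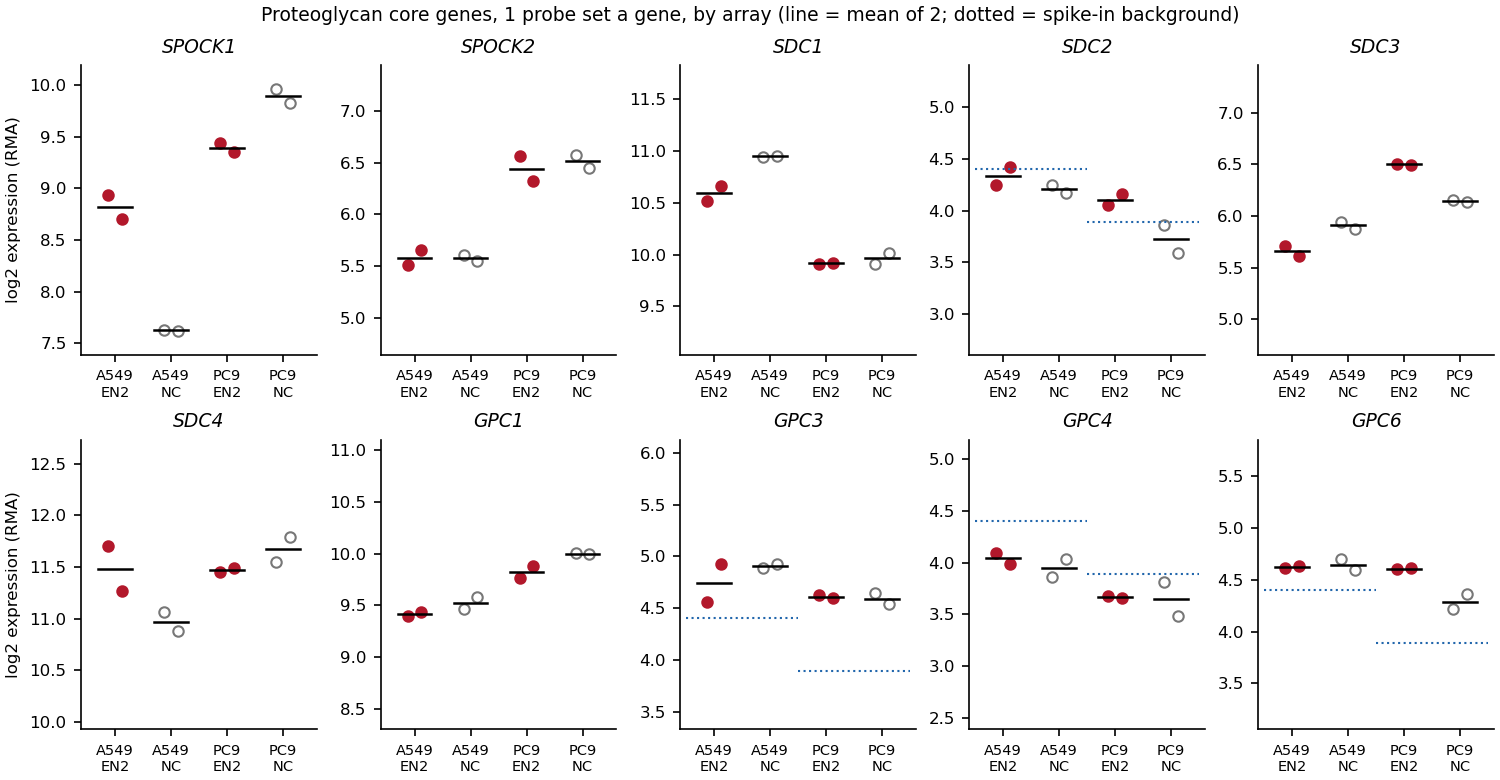
Log2 expression of the 10 proteoglycan core genes on the 8 arrays, by the probe set that stands for each gene. The x axis gives the 4 groups, filled points are EN2 arrays, open points NC arrays, bars the mean of 2 arrays and dotted lines the spike-in background of the line where it falls in the panel. SPOCK1 was higher with EN2 in A549 (8.82 against 7.63) and read lower with EN2 in PC9 (9.39 against 9.89).

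In A549, EN2 cells differed from NC cells in 2 of the 10 genes, SPOCK1, which rose, and SDC1, which fell, while 8 did not pass. Over all genes 2.72% were called in this comparison. The median log2 change of the 10 genes was -0.012, beside -0.0015 over all genes. By probe set, 3 of 33 were called, against 1.97% of all probe sets. In PC9, limma called none of the 10 genes and none of the 33 probe sets, where 0.367% of genes and 0.279% of probe sets were called. At an unadjusted p below 0.05 the PC9 counts were 5 genes, beside 6.75% of all genes, and 6 probe sets, beside 6.37% of all probe sets. The A549 count at that threshold was 4 genes, beside 17.4% of all genes. The median change of the 10 genes in PC9 was -0.015, beside 0.0040 over all genes.

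SPOCK1 encodes testican-1, a secreted proteoglycan that inhibits extracellular proteases and is often raised in invasive carcinoma. Its single probe set read 8.94 and 8.70 in A549 EN2 cells, against 7.63 and 7.62 in A549 NC cells. In PC9 it read 9.44 and 9.35 with EN2, against 9.96 and 9.83 with NC. In A549 both EN2 arrays lay above both NC arrays, and in PC9 both lay below.

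SPOCK1 rose 2.28-fold in A549 (log2 change 1.19 ± 0.092 SE, limma adjusted p = 0.000218). In PC9 the log2 change was -0.50 ± 0.092, a 1.41-fold lower level that did not pass (limma adjusted p = 0.083). The change in A549 minus that in PC9 was 1.69 ± 0.13 (limma adjusted p = 0.00101). SPOCK1 was the 1 member of 10 called in this difference, where 0.784% of all genes were called, and 1 of 33 member probe sets, against 0.537% of all probe sets. Across the groups the level fell in the order PC9 NC, PC9 EN2, A549 EN2 and A549 NC, with no overlap between neighbours. The A549 level lay 0.58 below the PC9 level with EN2, against 2.27 below with NC. Once the 18S rRNA signal was a covariate the A549 change was 0.92 and lost its call (limma adjusted p = 0.114, range 8.69e-05 to 0.114 over 19 alternatives). The difference between lines lost its call without A549 EN2 replicate 1 and A549 NC replicate 2 together, at 1.57 (limma adjusted p = 0.0719). The PC9 change passed with the replicate number as a block (limma adjusted p = 0.024, range 0.024 to 1 over 19 alternatives). With the 18S rRNA covariate the PC9 change was -0.51 and also passed (limma adjusted p = 0.0263).

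The genes closest to SPOCK1 were found by the Euclidean distance between values on the 8 arrays, after each line's mean was subtracted. The 3 nearest of all genes were CA13, a carbonic anhydrase, at 0.32, FN1, the matrix glycoprotein fibronectin, at 0.363, and GATA6, a transcription factor of endoderm and lung, at 0.453. These 3 were picked on the same arrays for values near those of SPOCK1, so their directions of change and p-values are no separate evidence. FN1 rose by 1.37 in A549 (limma adjusted p = 0.000181) and fell by 0.72 in PC9 (limma adjusted p = 0.0186). The PC9 call of FN1 was lost by the mean of all its probe sets (-0.64, limma adjusted p = 0.0815). It was lost on the PC9 arrays alone (limma adjusted p = 0.167) and against a 1.2-fold minimum (limma adjusted p = 0.273). It was also lost without PC9 EN2 replicate 2 (-0.54), PC9 NC replicate 1 (-0.65) or PC9 NC replicate 2 (-0.78). The same held without A549 EN2 replicate 1 and A549 NC replicate 2 together. GATA6 averaged 7.93 ± 0.27 in A549 EN2 cells and 7.08 ± 0.091 in A549 NC cells, and its change passed (0.85, limma adjusted p = 0.0232). With the 18S rRNA covariate the GATA6 change was 0.33 and was not called (limma adjusted p = 0.988). Nor was it called on the A549 arrays alone (limma adjusted p = 0.105) or against a 1.2-fold minimum (limma adjusted p = 0.236). The GATA6 call was also lost without A549 EN2 replicate 1 (0.65) or A549 NC replicate 2 (0.78). Its PC9 change was -0.64 and did not pass (limma adjusted p = 0.228), except with the replicate number as a block (limma adjusted p = 0.0167). CA13 rose by 1.16 in A549 (limma adjusted p = 0.000309). Its PC9 level averaged 3.15 with EN2 and 3.37 with NC, below the spike-in background. With the 18S rRNA covariate, CA13 was 1.05 (limma adjusted p = 0.18) and FN1 was 1.31 (limma adjusted p = 0.0868), neither called. Without A549 EN2 replicate 1 and A549 NC replicate 2 together, CA13 (limma adjusted p = 0.0701), FN1 (limma adjusted p = 0.0697) and GATA6 (limma adjusted p = 0.581) were not called in A549.

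The related testican gene SPOCK2 had 6 probe sets and no call in either line. Its brightest probe set read 5.51 and 5.65 in A549 EN2 cells, against 5.61 and 5.55 in A549 NC cells. In PC9 it read 6.57 and 6.32 with EN2, against 6.58 and 6.45 with NC. The groups overlapped in both lines. The log2 changes were -0.00052 in A549 (95% interval -0.24 to 0.24) and -0.069 in PC9 (-0.31 to 0.17). Over its 6 probe sets the changes ran from -0.19 to 0.085 in A549 and from -0.15 to 0.12 in PC9.

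SDC1 encodes syndecan-1, the main syndecan of epithelial cells, which is shed from the surface by metalloproteases. Its brightest probe set read 10.52 and 10.66 in A549 EN2 cells, against 10.95 and 10.96 in A549 NC cells. The dimmest of its 3 probe sets read 8.10 and 8.33 with EN2, against 8.91 and 9.05 with NC. The third read 9.17 and 9.35 with EN2, against 9.55 and 9.63 with NC. Each of the 3 probe sets lay below NC on both EN2 arrays. Taken singly, 24.1% of all probe sets lay so in A549, and the share of genes with all their probe sets so placed was not counted.

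SDC1 fell 1.28-fold in A549 by the brightest probe set (log2 change -0.36 ± 0.070 SE, limma adjusted p = 0.0288 over all genes). Among all probe sets, the dimmest was called at -0.76 (limma adjusted p = 0.0104) and the brightest was called (limma adjusted p = 0.0341), while the third was at -0.33 and was not (limma adjusted p = 0.104). In PC9 the 3 probe sets had changes of -0.28 to -0.049 and none passed. The brightest read 9.91 and 9.92 in PC9 EN2 cells against 9.91 and 10.02 in PC9 NC cells. The difference of the SDC1 changes between lines, -0.31, did not pass (limma adjusted p = 0.242).

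The A549 call of SDC1 was kept in 9 of 19 alternatives, with adjusted p from 0.0147 to 1. It was lost on the A549 arrays alone (limma adjusted p = 0.153), and the change was -0.19 with the 18S rRNA covariate (limma adjusted p = 0.946). It was also lost without A549 EN2 replicate 1 (-0.29, limma adjusted p = 0.212), without A549 NC replicate 2 (-0.35, limma adjusted p = 0.174) and without A549 NC replicate 1 (-0.36, limma adjusted p = 0.0652). Leaving out either PC9 EN2 array, which changes only the shared spread, gave 0.0574 for limma's adjusted p. Epithelial markers moved in the same comparison: EPCAM, CDH1, KRT18 and KRT19 fell among 9, and 5 did not pass. The summed log2 level of the 9 was 80.7 to 81.0 on A549 EN2 arrays against 84.0 to 84.1 on A549 NC arrays. In PC9 it was 97.6 to 97.9 with EN2 against 97.6 to 98.2 with NC. The part of these markers in the SDC1 result was not tested.

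SDC4 encodes syndecan-4, a broadly made syndecan of focal adhesions that binds protein kinase C alpha. Its brightest probe set read 11.70 and 11.27 in A549 EN2 cells, against 11.06 and 10.88 in A549 NC cells. In PC9 it read 11.45 and 11.49 with EN2, against 11.55 and 11.79 with NC. By this probe set the groups did not overlap in either line, with EN2 above NC in A549 and below NC in PC9. In PC9, EN2 lay below NC without overlap at 2 of the 3 SDC4 probe sets. The remaining one read 10.96 and 11.07 with EN2, against 11.05 and 11.28 with NC, and overlapped.

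In A549 the SDC4 log2 change was 0.51 ± 0.13 SE (95% interval 0.22 to 0.81), which did not pass (limma adjusted p = 0.0773). Each of the 3 probe sets lay above NC on both A549 EN2 arrays, with changes of 0.45 to 0.53. Taken singly, 22.0% of all probe sets lay so. In PC9 the change was -0.19 (95% interval -0.49 to 0.10, limma adjusted p = 0.941). The difference of changes between lines, 0.71 ± 0.19, did not pass (limma adjusted p = 0.163). By the brightest probe set SDC4 averaged 11.48 in A549 EN2 cells and 11.47 in PC9 EN2 cells, and 10.97 in A549 NC cells and 11.67 in PC9 NC cells. The other probe sets were not level between the lines with EN2, at 11.48 and 10.55 in A549 against 11.01 and 9.99 in PC9. With NC they averaged 10.95 and 10.10 in A549 against 11.17 and 10.22 in PC9.

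Over the 4 A549 arrays SDC4 was highest where the 18S rRNA signal was lowest and descended as that signal went up, and SDC1 ran the other way. The part of this signal in either result was not tested beyond its use as a covariate. With that signal as a covariate the SDC4 change in A549 turned to -0.054 (limma adjusted p = 1). It passed at 0.73 without A549 EN2 replicate 2 (limma adjusted p = 0.0154), and was 0.30 without A549 EN2 replicate 1 (limma adjusted p = 0.389). With the replicate number as a block it passed at 0.51 (limma adjusted p = 0.0499). The plot of both syndecans by the rRNA signal shows these values.

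**Figure D2:**
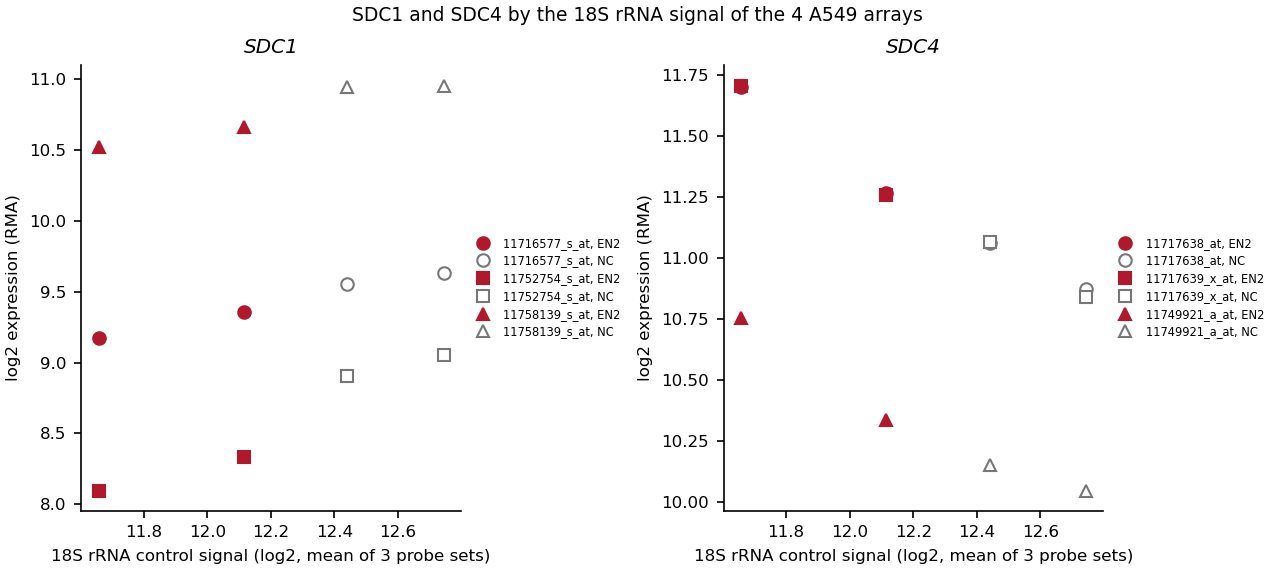
Log2 expression of the 3 probe sets of SDC1 and of SDC4 on the 4 A549 arrays (y axis) by the 18S rRNA control signal of the array (x axis, log2, mean of 3 control probe sets). Filled red points are EN2 arrays and open points NC arrays. The EN2 arrays have signals of 11.66 and 12.12 and the NC arrays 12.44 and 12.74, and SDC4 descends from 11.70 to 10.88 along this axis.

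The promoters of SDC1 and SDC4 are shown because these syndecans had the largest syndecan differences in A549, in opposite directions. The sequences are the 250 bases before each transcription start in RefSeq, build GRCh38.p14, read 5′ to 3′ on the minus strand, with the GC box GGGCGG or its complement CCGCCC in capitals. The SDC1 starts have windows at chr2:20225131-20225380 and chr2:20225476-20225725, and the SDC4 start at chr20:45348425-45348674.
SDC1 downstream start: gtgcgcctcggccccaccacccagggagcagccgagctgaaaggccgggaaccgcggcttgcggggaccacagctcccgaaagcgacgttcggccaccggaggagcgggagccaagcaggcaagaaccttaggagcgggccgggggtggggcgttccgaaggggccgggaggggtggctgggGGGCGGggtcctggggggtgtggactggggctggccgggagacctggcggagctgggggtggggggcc
SDC1 upstream start: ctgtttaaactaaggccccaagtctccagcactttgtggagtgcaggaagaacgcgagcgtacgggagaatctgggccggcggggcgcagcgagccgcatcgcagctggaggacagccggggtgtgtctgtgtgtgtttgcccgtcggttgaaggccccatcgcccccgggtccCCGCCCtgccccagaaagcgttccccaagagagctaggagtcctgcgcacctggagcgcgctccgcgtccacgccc
SDC4: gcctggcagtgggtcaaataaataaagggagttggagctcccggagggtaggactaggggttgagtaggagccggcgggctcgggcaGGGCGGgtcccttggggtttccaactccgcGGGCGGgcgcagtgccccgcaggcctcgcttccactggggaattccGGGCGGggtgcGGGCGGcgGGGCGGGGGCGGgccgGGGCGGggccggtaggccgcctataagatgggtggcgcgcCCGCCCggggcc

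The SDC1 windows held 1 GC box each and the SDC4 window held 8, with none overlapping another. A GC box on either strand was found in 42.6% of 35116 promoter windows of this length. In all, windows were read for 7 of 10 members, and the promoters of SPOCK1, SDC2 and GPC3 were not read. Those 7 members had 9 windows, of which 6 held a GC box. The homeodomain motif TAATTA, which engrailed proteins bind, reads the same on both strands, and none of the 9 windows held it, beside 4.35% of all windows. The shorter core TAAT, searched on both strands, was in 1 of 9 windows, that of GPC6, beside 47.4% of all windows. These matches describe only the letters of the windows.

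SDC3 encodes syndecan-3, known mainly from neural and musculoskeletal tissue. Its brighter probe set read 5.71 and 5.61 in A549 EN2 cells, against 5.94 and 5.88 in A549 NC cells. In PC9 it read 6.51 and 6.49 with EN2, against 6.15 and 6.14 with NC. The groups did not overlap in either line, with EN2 below NC in A549 and above NC in PC9.

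The SDC3 log2 change in A549 was -0.25 ± 0.083 SE and did not pass (limma adjusted p = 0.153). The PC9 change was 0.35 ± 0.083 and did not pass either (limma adjusted p = 0.211). The A549 change minus the PC9 change was -0.60 ± 0.12 and did not pass (limma adjusted p = 0.0594). It passed with a constant prior variance (limma adjusted p = 0.0482) and among genes above the spike-in background alone (limma adjusted p = 0.0492), over a range of 0.0482 to 0.775 in 18 alternatives. The dimmer SDC3 probe set overlapped between the groups in both lines. Its change was -0.19 in A549, and in PC9 it differed from the brighter, at 0.0037.

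SDC2 encodes syndecan-2, the syndecan of mesenchymal cells, and was dim. Its brightest of 6 probe sets averaged 4.33 ± 0.13 in A549 EN2 cells and 4.20 ± 0.056 in A549 NC cells, below the spike-in background of A549. In PC9 the same probe set read 4.05 and 4.16 with EN2, against 3.86 and 3.59 with NC, so only the EN2 arrays were above the PC9 background. The log2 change in PC9 was 0.38 ± 0.11 SE and did not pass (limma adjusted p = 0.379). The 5 other SDC2 probe sets lay below background in both lines, with changes of -0.12 to 0.066 in PC9.

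GPC1 encodes glypican-1, which binds fibroblast growth factors and is raised in several carcinomas. Its brighter probe set read 9.40 and 9.44 in A549 EN2 cells, against 9.47 and 9.58 in A549 NC cells. In PC9 it read 9.76 and 9.89 with EN2, against 10.01 and 9.99 with NC. EN2 lay below NC without overlap in both lines, by small amounts.

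The GPC1 log2 change was -0.10 in A549 (95% interval -0.27 to 0.058, limma adjusted p = 0.536) and -0.18 in PC9 (-0.34 to -0.016, limma adjusted p = 0.698). Neither passed, and the difference between lines was 0.074 (-0.16 to 0.30, limma adjusted p = 0.841). The dimmer GPC1 probe set was also negative in both lines, at -0.12 in A549 and -0.080 in PC9. By that probe set the groups overlapped in A549, while in PC9 EN2 lay below NC without overlap.

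At the gene level EN2 lay above NC without overlap for 2 members in A549, SPOCK1 and SDC4, beside 24.1% of all genes. It lay below for 3, SDC1, SDC3 and GPC1, beside 23.5%. In PC9 it lay above for 3, SDC2, SDC3 and GPC6, beside 17.7%, and below for 3, SPOCK1, SDC4 and GPC1, beside 15.2%. SPOCK1, SDC3 and SDC4 were thus apart in opposite directions in the lines, by the probe sets that stand for them. The share of all genes so placed was not counted, and of these members only SPOCK1 passed in the tested difference. The plot of changes at each probe set gives their intervals.

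**Figure D3:**
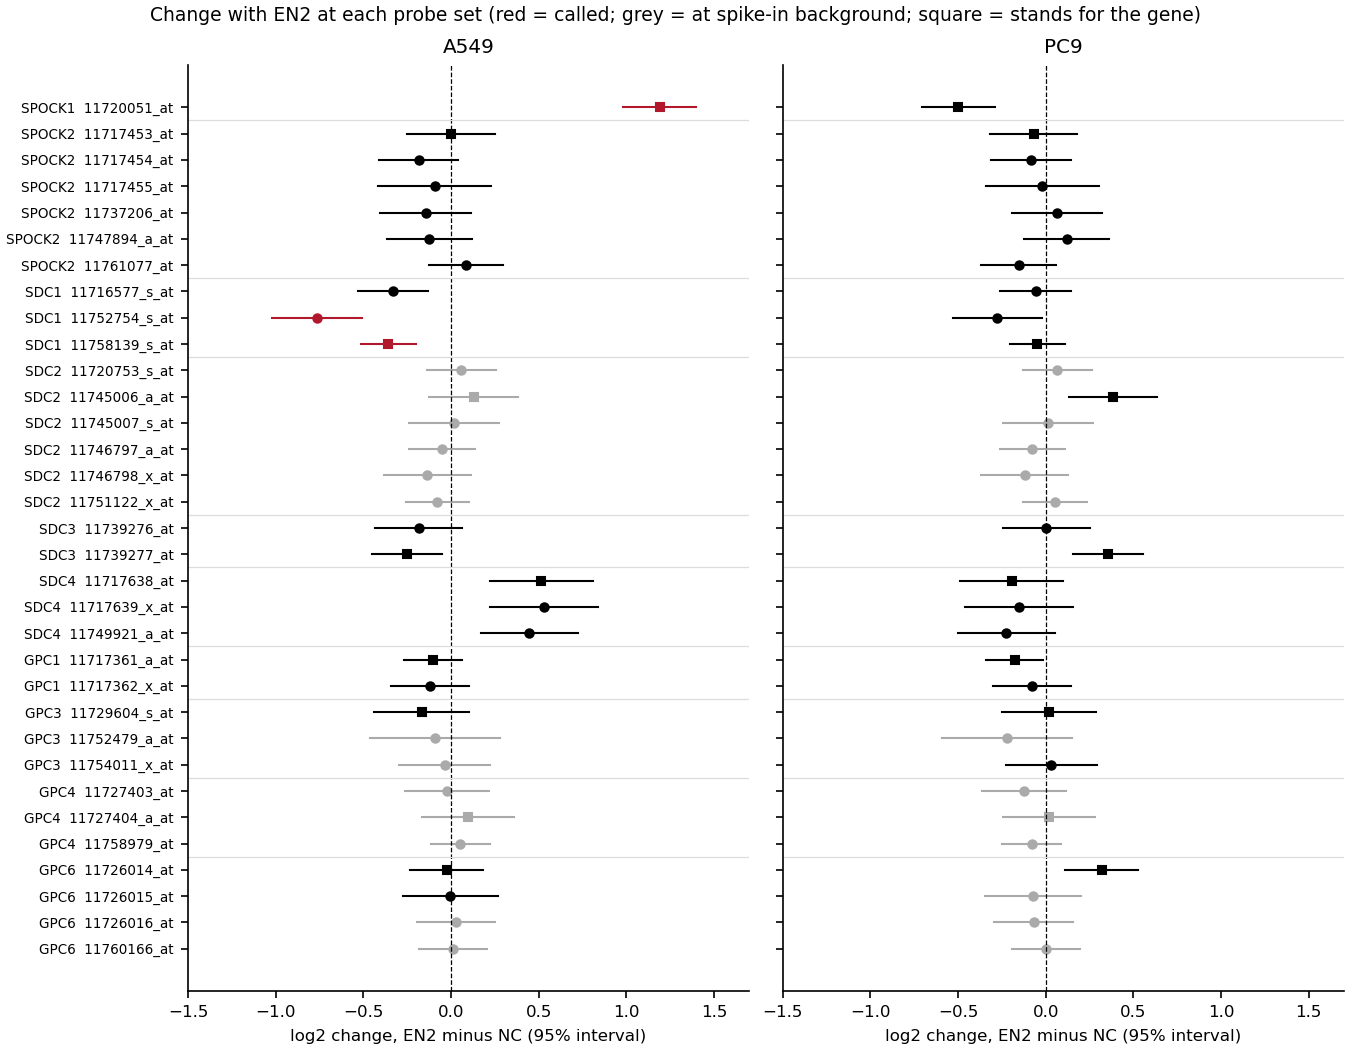
Log2 change with EN2 (EN2 minus NC, x axis) at each of the 33 probe sets of the 10 genes (rows), in A549 on the left and PC9 on the right, with 95% intervals from limma. Red marks called probe sets, grey those not above the spike-in background, and squares the probe set that stands for the gene. The called probe sets are SPOCK1 at 1.19 and SDC1 at -0.76 and -0.36 in A549, and none in PC9.

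The glypicans GPC3, GPC4 and GPC6 were dim by the probe sets that stand for them, while another GPC6 probe set read 5.06 to 5.41 on the A549 arrays, above the background there. GPC3, glypican-3, read 4.56 and 4.92 in A549 EN2 cells, against 4.89 and 4.92 in A549 NC cells, by its brightest probe set. In PC9 it read 4.62 and 4.59 with EN2, against 4.64 and 4.54 with NC. The groups overlapped in both lines, with changes of -0.17 (95% interval -0.43 to 0.097) in A549 and 0.019 (-0.25 to 0.28) in PC9.

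GPC4, glypican-4, was below the spike-in background with all 3 probe sets in both lines, at 2.88 to 4.10. GPC6, glypican-6, read 4.60 and 4.61 in PC9 EN2 cells, against 4.22 and 4.36 in PC9 NC cells, by its brightest probe set. That PC9 change of 0.32 ± 0.088 SE did not pass (limma adjusted p = 0.35). The 3 other GPC6 probe sets lay below background in PC9, and the largest of their changes there was -0.072. In A549 the 4 GPC6 probe sets had changes of -0.024 to 0.029.

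The vector controls compared the lines without the EN2 vector. A549 was grown in F-12K and PC9 in DMEM, so line and medium cannot be told apart here. The 18S rRNA control signal read 12.44 and 12.74 in A549 NC cells and 6.05 and 6.10 in PC9 NC cells. Its part in the line differences was not tested. EN2 itself was 0.70 higher in A549 NC than in PC9 NC cells as deposited (limma adjusted p = 6.13e-05). In this comparison all 10 member genes were called, beside 75.8% of all genes. Of the 10, 5 were higher in A549, beside 46.0% of all genes, and 5 lower, beside 29.7%. Arrays of the lines differed in scale: the median over all genes of A549 minus PC9 was 0.17 as deposited, -0.025 after quantile normalisation of all arrays and -0.068 after median centring. Under either rescaling 1 of the members, SDC1, was higher in A549 and the same number as before, 5, were lower. The share of calls higher in A549 over all genes was 60.8% as deposited, 47.9% after quantile normalisation and 43.9% after median centring. These controls are the same arrays that the EN2 comparisons use.

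SPOCK1 was 4.81-fold lower in A549 NC than in PC9 NC cells (log2 difference -2.27 ± 0.092 SE, limma adjusted p = 1.65e-08), and it was -2.30 after quantile normalisation and -2.51 after median centring. SDC1 was higher in A549, at 10.95 ± 0.0063 against 9.96 ± 0.078 (SD, n = 2 arrays each), a difference of 0.99 (limma adjusted p = 7.94e-07). Its 3 probe sets gave differences of 0.99 to 2.17 and all were called. GPC1 was lower in A549 by both probe sets, at -0.48 and -0.33.

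For other members the probe sets of a gene gave different answers between the lines. SPOCK2 was 0.93 lower in A549 by the brightest probe set, while 4 of its 6 probe sets read higher there, and the mean of all was 0.021 (limma adjusted p = 0.816). SDC4 was 0.70 lower by the brightest and -0.21 and -0.12 by the others, which were not called. SDC3 was -0.24 by the brighter probe set and 0.25 by the dimmer, so its mean was 0.0063 (limma adjusted p = 0.945). The GPC6 probe set that was brightest in A549 read 5.29 and 5.19 in A549 NC cells and 2.88 and 2.98 in PC9 NC cells, below the PC9 background. Its difference of 2.30 (limma adjusted p = 9.2e-08 over all probe sets) exceeded the gap in spike-in background between the lines. By probe set 26 of the 33 were called between the lines, beside 74.2% of all probe sets.

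The spike-in background was 0.52 higher in A549 than in PC9. The line differences of SDC2 (0.48), GPC3 (0.32), GPC4 (0.30) and GPC6 (0.36), by the probe sets that stand for them, were smaller than this. These line differences were larger than the median difference of the spike-in probe sets between the NC groups, which was 0.185. After quantile normalisation they were 0.10, -0.11, -0.056 and -0.059 and none was called. The plot of line differences shows all members under the 3 scalings.

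**Figure D4:**
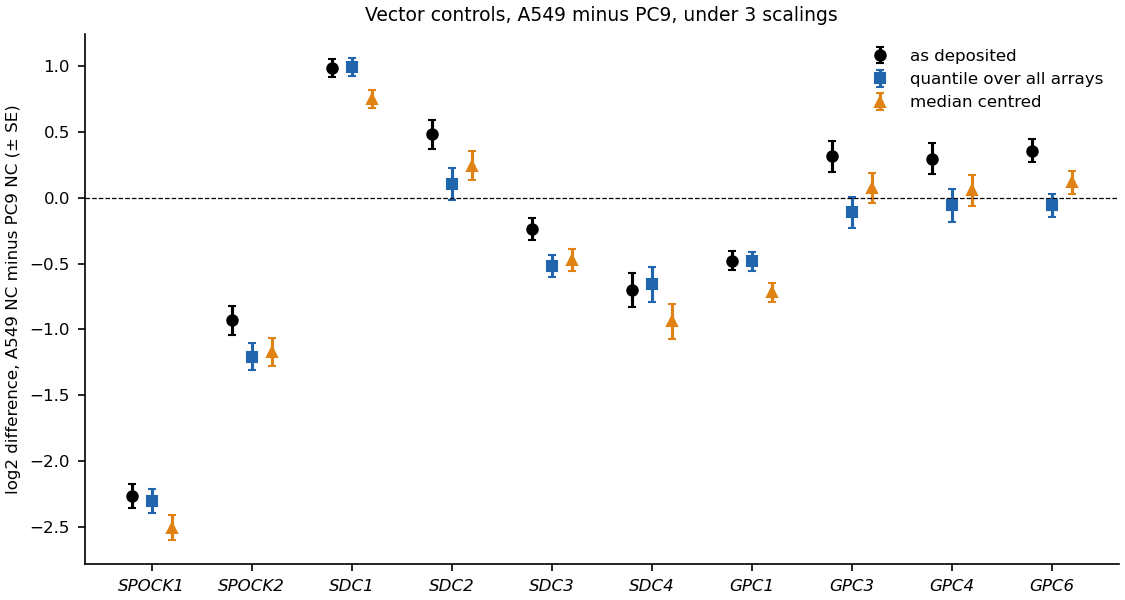
Log2 difference between the vector controls, A549 NC minus PC9 NC (y axis), for the 10 genes (x axis), as deposited, after quantile normalisation of all arrays and after median centring. Points are limma estimates and bars 1 SE. SPOCK1 lies at -2.27 to -2.51 and SDC1 at 0.75 to 0.99, while GPC3, GPC4 and GPC6 cross 0.

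Other genes that act with these cores were taken as 5 lists, whose counts of 0 to 2 called genes stand beside 2.72% of all genes called in A549 and 0.367% in PC9. At an unadjusted p below 0.05 the shares of all genes were 17.4% in A549 and 6.75% in PC9. Of 28 other proteoglycan cores in A549, VCAN, the large chondroitin sulfate proteoglycan versican, was the single gene called, and it fell by 0.57 (limma adjusted p = 0.00717). VCAN averaged 8.68 ± 0.014 in A549 EN2 cells and 9.25 ± 0.037 in A549 NC cells (SD, n = 2 arrays each). The call of VCAN was lost on the A549 arrays alone (limma adjusted p = 0.0567) and against a 1.2-fold minimum (limma adjusted p = 0.215). With the 18S rRNA covariate it was also lost (-0.58, limma adjusted p = 0.555). The same held without A549 EN2 replicate 1 (-0.56), without A549 NC replicate 2 (-0.60) or without both (-0.59). In PC9 limma called none of the 28, and 4 had an unadjusted p below 0.05. The list medians were -0.00085 in A549 and 0.0036 in PC9, beside -0.0015 and 0.0040 over all genes. VCAN lay below the spike-in background in both PC9 groups.

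Of 14 genes that cut cores or chains or act on that cutting, HPSE rose in A549 and 13 did not pass. HPSE encodes heparanase, the enzyme that cleaves heparan sulfate, and averaged 5.57 ± 0.12 in A549 EN2 cells and 5.01 ± 0.089 in A549 NC cells. Its change of 0.57 (limma adjusted p = 0.0256) lost the call with the 18S rRNA covariate (0.45, limma adjusted p = 0.868). The call was also lost on the A549 arrays alone (limma adjusted p = 0.0982) and against a 1.2-fold minimum (limma adjusted p = 0.602). The same held without A549 EN2 replicate 1 (0.48), without either A549 NC array (0.50 and 0.63), and without A549 EN2 replicate 1 and A549 NC replicate 2 together (0.54). The list medians were 0.025 in A549 and 0.039 in PC9. In PC9, TIMP3, a matrix-bound inhibitor of the proteases that shed syndecans, rose by 0.84 (limma adjusted p = 0.00438) and 13 did not pass. TIMP3 averaged 10.07 ± 0.11 in PC9 EN2 cells and 9.23 ± 0.075 in PC9 NC cells. That call was lost against a 1.2-fold minimum (limma adjusted p = 0.0533), without PC9 EN2 replicate 1 (0.76) and without PC9 NC replicate 2 (0.79).

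Of 15 partners of syndecan tails, SRC, the tyrosine kinase, fell by 0.73 in A549 (limma adjusted p = 0.00173) and 14 did not pass. SRC averaged 9.25 ± 0.11 in A549 EN2 cells and 9.97 ± 0.055 in A549 NC cells. With the 18S rRNA covariate it was at -0.49 and was not called (limma adjusted p = 0.45), nor was it without A549 EN2 replicate 1 and A549 NC replicate 2 together (-0.61, limma adjusted p = 0.133). In PC9 limma called none of the 15, and 1 had an unadjusted p below 0.05. The list medians were -0.099 in A549 and -0.028 in PC9.

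Of 27 heparan sulfate-binding ligands and their receptors, limma called none in either line, with 6 in A549 and 7 in PC9 at an unadjusted p below 0.05. Of 27 genes that build or modify the chains, XYLT1, which starts them, rose in A549 (1.38, limma adjusted p = 0.000154). XYLT1 averaged 6.76 ± 0.15 in A549 EN2 cells and 5.38 ± 0.040 in A549 NC cells, and it lay below the spike-in background in both PC9 groups. SULF2, an extracellular enzyme that removes sulfate from heparan sulfate, fell by 0.71 (limma adjusted p = 0.00396) and 25 did not pass. SULF2 averaged 7.60 ± 0.12 in A549 EN2 cells and 8.31 ± 0.016 in A549 NC cells. In PC9, PXYLP1, a phosphatase of the chain linker, rose by 1.46 (limma adjusted p = 0.000112) and 26 did not pass. PXYLP1 averaged 8.66 ± 0.028 in PC9 EN2 cells and 7.20 ± 0.0093 in PC9 NC cells, and its call was kept in all 19 alternatives. With the 18S rRNA covariate XYLT1 was 1.19 (limma adjusted p = 0.104) and SULF2 was -0.85 (limma adjusted p = 0.203), neither called. SULF2 was also not called on the A549 arrays alone (limma adjusted p = 0.0562), against a 1.2-fold minimum (limma adjusted p = 0.0699) or without A549 EN2 replicate 1 and A549 NC replicate 2 together (limma adjusted p = 0.121). The A549 change minus the PC9 change passed for XYLT1 (1.35, limma adjusted p = 0.00259), PXYLP1 (-1.49, limma adjusted p = 0.00132) and SRC (-0.64, limma adjusted p = 0.0401). It also passed for MET, a growth factor receptor, at -0.45 (limma adjusted p = 0.0485), a gene named after its values were seen.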

How the data were processed

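RNA of 8 samples was hybridised to 1-colour arrays of 49495 probe sets, after Trizol extraction and biotin labelling, per the labels' protocols. The deposited values are log2 expression normalised by the authors with RMA, per the submitters' processing notes; whether the lines were normalised in 1 run is not given in the sources used here. Array medians spanned 6.33 to 6.35 in A549 and, for PC9, 6.10 to 6.11, and the number of arrays limits the precision.

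Groups came from the sample titles. In all, 45284 probe sets had 1 gene symbol, 1333 several and 2878 none, and 45214 matched the reference table. A gene took its brightest single-symbol probe set. limma 3.58.1 in R 4.3.3 was fitted to all 8 arrays with a mean per group and a trended prior, with 4 residual degrees of freedom, and p-values were adjusted over all 18244 genes or all probe sets by Benjamini-Hochberg. For a single value, an exact permutation test of 2 against 2 arrays cannot go below p = 0.333. The fit was tested on simulated data. Named genes were the members, the called genes of the 5 lists and the 3 genes nearest to SPOCK1. The members, lists and tests were chosen with earlier results of these data known. Alternatives were other prior variances, scalings, probe set summaries and filters, a 1.2-fold minimum, a replicate block, the 18S rRNA covariate and leaving out arrays; those for the named genes outside the members were added after seeing the data.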

Additional observations from a re-analysis of the deposited data

Results flagged for a closer look

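The change of SPOCK1 with EN2 differed between the lines: 1.19 in A549 and -0.50 in PC9, a tested difference of 1.69 (limma adjusted p = 0.00101). By its brighter probe set, SDC3 lay below NC on both A549 EN2 arrays and above NC on both PC9 EN2 arrays. Its changes were -0.25 and 0.35, with a difference of -0.60 that did not pass (limma adjusted p = 0.0594). The dimmer SDC3 probe set overlapped between the groups in both lines. By its brightest probe set, SDC4 lay above NC on both A549 EN2 arrays and below NC on both PC9 EN2 arrays. Its changes were 0.51 and -0.19, with a difference of 0.71 that did not pass (limma adjusted p = 0.163). In PC9, 2 of its 3 probe sets lay below NC without overlap.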

How the results depend on the processing

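In A549, 2 members were called; the count was 1 with a constant prior variance, on the line's arrays alone, against a 1.2-fold minimum and without A549 EN2 replicate 1 and A549 NC replicate 2 together, 0 with the 18S rRNA covariate, and 1 to 3 with 1 array left out. The covariate, which overlaps with the EN2 grouping, raised the median SE in A549 to 0.19, against 0.095 without it. The 3 called probe sets became 0 with the covariate, 1 without those 2 arrays and 1 to 6 with 1 array left out. In PC9 the count of 0 members became 1 with the covariate or the replicate block and 0 to 1 with 1 array left out, and that of probe sets became 1 with the covariate or the block. The difference between lines, with 1 member called, gave 2 with a constant prior or brighter genes only, 0 without those 2 arrays and 1 to 2 with 1 array left out; its 1 probe set became 0 and 1 to 4. Between the vector controls 10 members became 6 after quantile normalisation or median centring, 5 against a 1.2-fold minimum and 7 to 9 with 1 array left out. Why these counts moved was not tested, also where an alternative had fewer arrays or genes.

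Replicate numbers were not shown to pair the arrays: the correlation of same-numbered deviations was 0.337 for A549 EN2 with A549 NC and -0.093 to 0.11 for the other pairs of groups. With the replicate block SPOCK1 in PC9 passed (-0.50, limma adjusted p = 0.024), as did SDC4 in A549 (0.51, limma adjusted p = 0.0499).

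Some values turned sign, none of them a call of an EN2 comparison. With the covariate A549 values were -0.054 for SDC4, 0.11 for SPOCK2, 0.015 for GPC1 and 0.24 for GPC3, and the GPC3 difference was 0.21. For SPOCK2 in A549, quantile normalisation gave 0.018, median centring 0.0047, leaving out the 2 arrays together 0.045 and leaving out 1 array -0.074 to 0.073. Leaving out 1 array gave -0.19 to 0.055 for SPOCK2, -0.10 to 0.0059 for SDC1, -0.034 to 0.071 for GPC3 and -0.14 to 0.18 for GPC4 in PC9. It gave -0.35 to 0.016 for GPC3 and -0.078 to 0.031 for GPC6 in A549, and -0.055 to 0.19 for SPOCK2 and -0.085 to 0.24 for GPC4 in the difference. Without the 2 arrays GPC3 was 0.034 in A549 and 0.015 in the difference, which stayed below 0, at -0.37 to -0.0027, with 1 array left out. The mean of all probe sets gave -0.0096 for SDC2 and 0.0032 for GPC6 in A549, -0.057 for GPC3 and -0.062 for GPC4 in PC9, -0.053 for SPOCK2 in the difference, and 0.021 for SPOCK2 and 0.0063 for SDC3 between the controls. Quantile normalisation gave -0.11 for GPC3, -0.056 for GPC4 and -0.059 for GPC6 between the controls. GPC4 was not tested among brighter genes.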
